A study of Mus musculus with 9 samples.

Results

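The genes described here are 35 mouse genes for lysosomal hydrolases, their helper proteins and lysosomal membrane proteins, with proton pump subunits and cathepsins left out. They were chosen by name from known function, with earlier results of these data known, and each is read by a probe set annotated to that gene alone. All 35 had such a probe set, among 19938 genes with one on the array, and all 35 passed the filter on low values that left 10795 genes for testing. Microglia, the resident macrophages of the brain, were sorted as CD45+ CD11b+ cells from 9 mice aged 8.5 months, and RNA from each mouse was hybridised to 1 array. All 9 mice carried 5XFAD, human transgenes that drive amyloid deposition, and all were deficient in mouse TREM2, which binds lipids and lipoproteins at the microglial surface. KO mice expressed no human TREM2, R47H mice expressed its R47H variant and CV mice its common variant. Each group held 3 mice, with mouse 1 female and mice 2 and 3 male. The labels do not say what drives human TREM2 expression. The KO group, which is the baseline for both others, is likewise without the mouse receptor, so no group carries it.

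Lysosomes are acidic organelles in which enzymes break down what a phagocyte takes up, from lipids and glycans to proteins. Soluble hydrolases are delivered to them by mannose 6-phosphate tags, and membrane glycoproteins line them, carry cholesterol out and release calcium. Loss of many of these genes causes storage diseases, several of which damage the brain. Many are controlled by TFEB and its relatives, transcription factors that bind an E-box within a longer motif called the CLEAR element. The comparisons ask whether these genes differ in microglia with human TREM2 in the presence of amyloid, and whether R47H differs from the common variant.

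Promoters of the members are shown because the choice by name did not use their letters. Many lysosomal genes are known to be controlled by TFEB and its relatives, so a raised share of their motif was likely in advance. The shares below are therefore descriptions and not a test. RefSeq promoters of GRCm38.p6, from 250 bases before to 50 after the start, were found for 32 of the 35 genes. A gene counted as holding a motif if any of its promoters held it. The E-box CACGTG, which reads the same on both strands, was present in 10 of these 32 genes (31.2%), against 8.09% of 27025 genes with a promoter of the same length. The 8-letter TCACGTGA, which contains the E-box and also reads the same on both strands, was present in 3 of 32 (9.38%), against 1.12% of all genes. With the 250 bases before the start alone the shares were 31.2% against 6.86% and 9.38% against 0.907%. A match is a description of letters, and binding was not measured. The promoters of Gla, which holds TCACGTGA in both of its E-boxes (the CACGTG starting 227 and 194 bases before the start), of Mcoln1 and Cln3, which hold it once, and of Naglu and Gaa, which hold CACGTG alone, are printed with each match in capitals. They lie at chrX:134600956-134601255 (minus strand), chr8:3500269-3500568 (plus strand), chr7:126583187-126583486 (minus strand), chr11:101069844-101070143 (plus strand) and chr11:119267713-119268012 (plus strand), and each is written 5′ to 3′ along its gene.
Gla: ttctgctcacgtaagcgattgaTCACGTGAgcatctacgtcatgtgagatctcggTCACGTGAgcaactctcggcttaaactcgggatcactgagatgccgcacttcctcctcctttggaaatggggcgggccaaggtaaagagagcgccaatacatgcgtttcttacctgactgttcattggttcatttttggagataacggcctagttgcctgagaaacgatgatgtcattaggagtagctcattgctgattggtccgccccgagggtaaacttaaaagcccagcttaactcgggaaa
Mcoln1: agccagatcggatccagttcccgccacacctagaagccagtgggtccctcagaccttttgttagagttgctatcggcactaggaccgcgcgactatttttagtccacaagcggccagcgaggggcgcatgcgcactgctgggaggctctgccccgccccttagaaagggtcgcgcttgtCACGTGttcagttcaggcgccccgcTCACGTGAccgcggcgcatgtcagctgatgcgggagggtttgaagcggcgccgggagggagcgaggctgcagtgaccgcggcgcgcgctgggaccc
Cln3: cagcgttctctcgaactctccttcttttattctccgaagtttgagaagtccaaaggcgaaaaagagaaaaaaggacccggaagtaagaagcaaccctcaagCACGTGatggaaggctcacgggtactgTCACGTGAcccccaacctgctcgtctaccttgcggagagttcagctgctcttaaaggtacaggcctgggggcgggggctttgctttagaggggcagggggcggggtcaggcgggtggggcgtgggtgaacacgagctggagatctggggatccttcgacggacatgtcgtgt
Naglu: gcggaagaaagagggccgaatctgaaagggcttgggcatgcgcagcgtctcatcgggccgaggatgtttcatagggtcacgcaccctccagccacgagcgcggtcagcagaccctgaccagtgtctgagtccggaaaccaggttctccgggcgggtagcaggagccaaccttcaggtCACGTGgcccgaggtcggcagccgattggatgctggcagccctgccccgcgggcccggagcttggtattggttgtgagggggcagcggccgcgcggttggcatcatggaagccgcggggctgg
Gaa: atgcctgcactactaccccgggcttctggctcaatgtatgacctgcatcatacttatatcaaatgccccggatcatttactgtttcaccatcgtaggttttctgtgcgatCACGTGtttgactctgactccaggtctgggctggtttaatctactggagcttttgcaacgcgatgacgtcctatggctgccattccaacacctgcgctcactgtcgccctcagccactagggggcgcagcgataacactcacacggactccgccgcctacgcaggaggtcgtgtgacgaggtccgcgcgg
The other genes with CACGTG were Arsa, Glb1, Lamp1, Lgmn and Sgsh. Lamp1 held 4 copies, at 61, 45, 28 and 15 bases before the start. Cln3 and Lgmn each had another promoter, not printed, without CACGTG.

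As facts of the whole series, array medians lay between 5.28 and 5.35 (log2) and correlations between arrays were 0.981 to 0.990. The probe set of mouse Trem2 ranged from 7.10 to 7.19 over KO mice, from 7.26 to 7.31 over R47H mice and from 7.05 to 7.21 over CV mice, and since all groups lack the mouse receptor and the part of the gene its probe set reads is not known here, it checks no label. Of 10 microglial markers, 9 had a probe set and all 9 passed the filter, with summed levels of 14.61 to 14.88 (log2) over the 9 mice. Neutrophil RNA was also present: the summed level of 13 neutrophil markers, on a log2 scale, ranged from 9.76 to 14.20 in KO, from 10.71 to 12.50 in R47H and from 13.52 to 14.24 in CV, the high KO value being mouse 3. In bulk RNA of sorted cells, fewer cells of a type and less RNA per cell cannot be told apart.

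Microglia with the common variant did not differ from KO microglia past the threshold in any of the 35 lysosomal members. Of 35 members, 0 were called in CV minus KO (limma, Benjamini-Hochberg adjusted p under 0.05 over all tested genes), where 1.21% of all 10795 genes were called. At an unadjusted p under 0.05, 10 members passed (28.6%, against 13.2% of all genes), 9 lower in CV (25.7%, against 6.95% of all genes) and 1 higher (2.86%, against 6.23%). Without the sex term in the model 5 members passed (14.3%, against 11.4% of all genes). The differences leaned one way: 31 of 35 were below 0 (88.6%, against 55.0% of all genes), with a median of -0.09 on the log2 scale beside -0.02 for all tested genes. The largest shifts were to 0.77 of the KO level, for Naglu, and to 1.23 times the KO level, for Gla. The 95% confidence intervals lay inside -1 to 1 for all 35 members and inside -0.5 to 0.5 for 33 of them. The heat map of deviations shows this as blue in CV mice 2 and 3 across most rows.

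**Figure D1:**
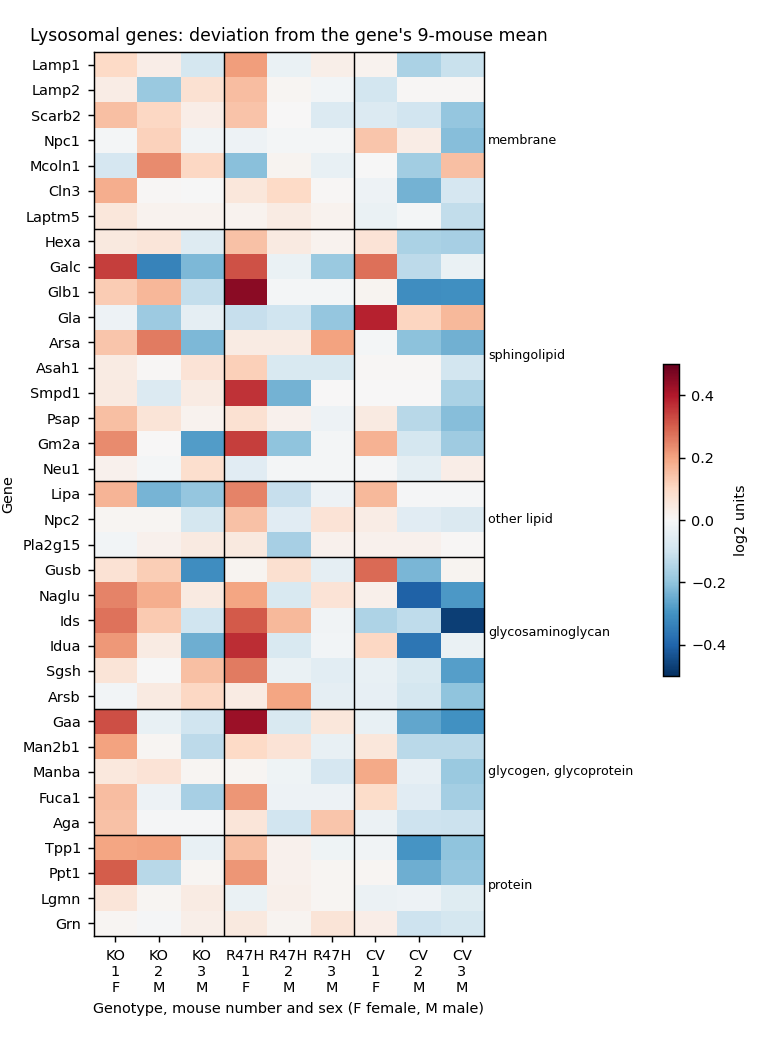
Each row is 1 of the 35 lysosomal genes, grouped by role, and each column 1 mouse; colour gives the log2 value minus that gene's mean over the 9 mice (red higher, blue lower; the scale ends at -0.5 and 0.5). CV mice 2 and 3 are below the gene's mean in most rows, and mouse 1, the female of each genotype, is above it in most rows in KO and R47H.

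Averaged over the 35 genes, the deviation per mouse was 0.12, 0.02 and -0.05 in KO mice 1, 2 and 3, and 0.14, -0.02 and -0.01 in R47H. In CV it was 0.04, -0.12 and -0.13. KO and CV overlapped because the CV female stood above KO mice 2 and 3. In KO mouse 1 30 of the 35 genes stood above their own mean, and in CV mice 2 and 3 only 6 each did.

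**Figure D2:**
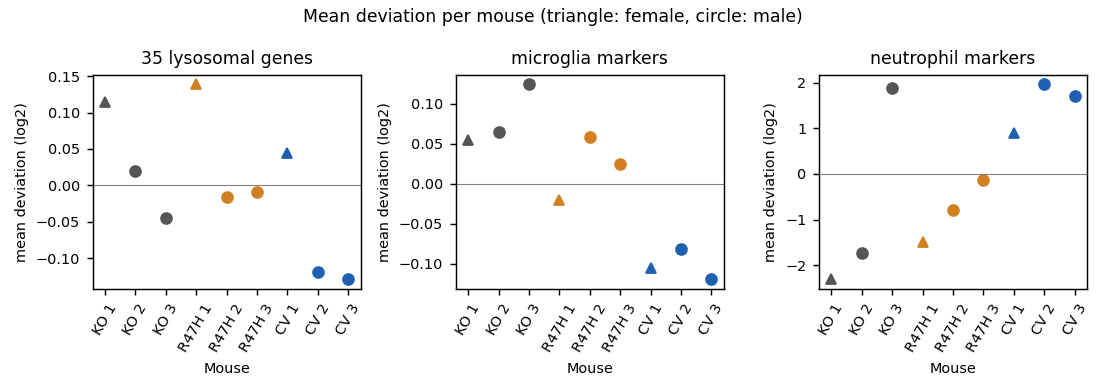
Mean deviation per mouse, on the log2 scale, over the 35 lysosomal genes, the 9 microglial markers and the 9 tested neutrophil markers; triangles are females and circles males. The lysosomal mean is lowest in CV mice 2 and 3 (-0.12 and -0.13), the microglial mean is below 0 in all 3 CV mice, and the neutrophil mean is above 0 in the 3 CV mice and in KO mouse 3.

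Genes of glycosaminoglycan breakdown had the largest lean among the roles, with a median of -0.18 and 5 of 6 below 0. Naglu, the N-acetylglucosaminidase that acts on heparan sulfate, read 9.08, 9.02 and 8.88 in KO mice 1 to 3, 9.03, 8.76 and 8.91 in R47H, and 8.86, 8.43 and 8.55 in CV (log2). All 3 CV mice lay below all 3 KO mice, though CV mouse 1 was only just below KO mouse 3. Its difference was -0.38 ± 0.08 (SE, limma adjusted p = 0.0808), the smallest p of any member here. Ids, the iduronate sulfatase, read 8.51, 8.37 and 8.14 in KO, 8.55, 8.40 and 8.22 in R47H, and 8.09, 8.11 and 7.77 in CV. CV mouse 3 was well below the rest, and CV and KO did not overlap. Its difference was -0.35 ± 0.11 (limma adjusted p = 0.21). Sgsh, the heparan N-sulfatase, read 6.58 to 6.82 in CV, just below the lowest KO mouse at 6.85. It stood at -0.20 ± 0.09, Arsb, which removes sulfate from dermatan and chondroitin sulfates, at -0.16 ± 0.09 and Idua, the iduronidase, at -0.10 ± 0.11, with limma adjusted p of 0.403 to 0.732. Gusb, the beta-glucuronidase, was the only one above 0, at 0.06 ± 0.13. Arsb was the only member with a second probe set, which gave -0.16 too.

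Sphingolipid genes held both the member that leaned most upward and several below 0, with a median of -0.06. Gla, the alpha-galactosidase that cleaves globotriaosylceramide, read 8.66, 8.50 and 8.64 in KO, 8.57, 8.58 and 8.49 in R47H, and 9.07, 8.79 and 8.84 in CV. Every CV mouse exceeded all KO and all R47H mice, and the latter 2 groups overlapped. Its difference was 0.30 ± 0.08 (limma adjusted p = 0.124). Glb1, the beta-galactosidase of GM1 ganglioside, read 9.09, 9.13 and 8.84 in KO, 9.41, 8.95 and 8.95 in R47H, and 8.98, 8.65 and 8.65 in CV. The CV female overlapped KO, and the difference was -0.26 ± 0.10 (limma adjusted p = 0.305). Psap, the precursor of the saposin activators, stood at -0.18 ± 0.07 (limma adjusted p = 0.283), with 11.98, 11.89 and 11.84 in KO and 11.87, 11.69 and 11.61 in CV. Arsa, the sulfatase of sulfatide, stood at -0.21 ± 0.13. Hexa, the alpha subunit of beta-hexosaminidase, stood at -0.10 ± 0.07, the acid ceramidase Asah1 at -0.06 ± 0.07 and the acid sphingomyelinase Smpd1 at -0.06 ± 0.11. Neu1, a sialidase, stood at -0.04 ± 0.06 and Gm2a, the activator that presents GM2 ganglioside, at -0.02 ± 0.09. Galc, which breaks down the myelin lipid galactosylceramide, stood at 0.11 ± 0.09.

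Enzymes of glycogen and glycoprotein sugars were all below 0, with a median of -0.10. Gaa, which breaks down glycogen, read 9.18, 8.82 and 8.75 in KO, 9.28, 8.78 and 8.91 in R47H, and 8.82, 8.60 and 8.55 in CV. KO and CV overlapped through the CV female, and the difference was -0.26 ± 0.07 (limma adjusted p = 0.165). The aspartylglucosaminidase Aga stood at -0.13 ± 0.08, the alpha-mannosidase Man2b1 at -0.10 ± 0.07, the beta-mannosidase Manba at -0.06 ± 0.08 and the fucosidase Fuca1 at -0.03 ± 0.07.

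Genes of peptide and protein processing were below 0 in 4 of 4. Tpp1, a tripeptidyl peptidase, read 10.44, 10.45 and 10.21 in KO, 10.39, 10.27 and 10.23 in R47H, and 10.23, 9.95 and 10.04 in CV. CV mouse 1 stood just above KO mouse 3, and the difference was -0.29 ± 0.08 (limma adjusted p = 0.156). Ppt1, which removes palmitate from proteins, read 10.97, 10.54 and 10.68 in KO, 10.90, 10.70 and 10.68 in R47H, and 10.68, 10.43 and 10.48 in CV. The CV female matched KO mouse 3 and exceeded KO mouse 2, so the groups overlapped. It stood at -0.20 ± 0.07 (limma adjusted p = 0.273). Lgmn, the asparaginyl endopeptidase legumain, stood at -0.07 ± 0.06, with an interval from -0.21 to 0.07. Grn, which encodes progranulin, stood at -0.07 ± 0.06, with an interval from -0.21 to 0.08.

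**Figure D3:**
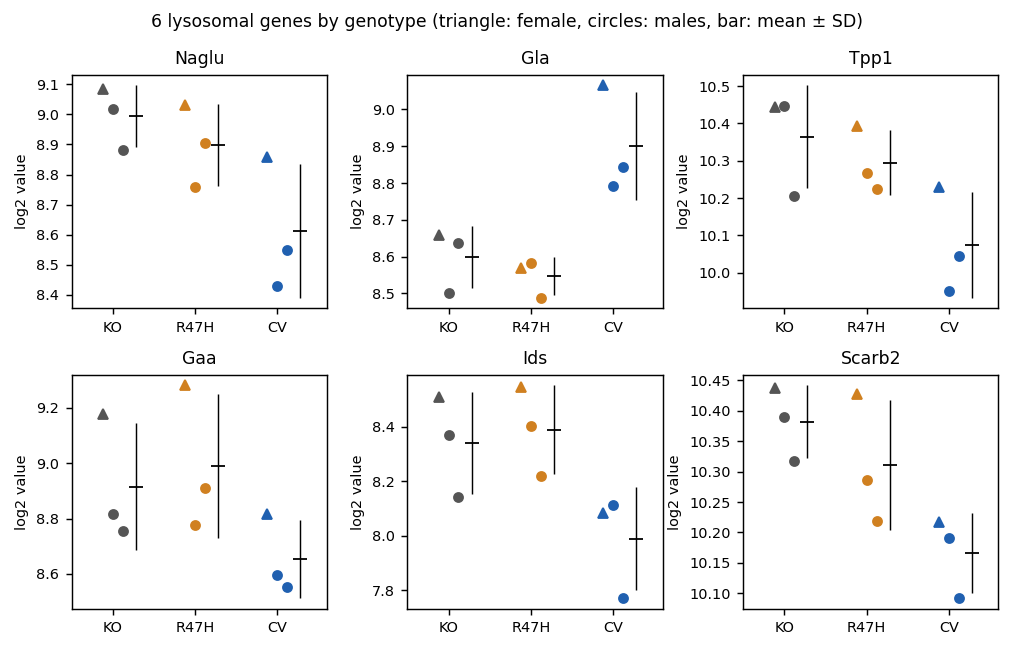
Log2 values of the 6 lysosomal genes with the smallest unadjusted p in CV minus KO, by genotype; the triangle is the female and circles the males, and the bar is the mean ± SD over 3 mice. Naglu, Ids and Scarb2 lie lower in all CV than in all KO mice, Gla lies higher, and Tpp1 and Gaa overlap; the axes do not start at 0.

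Membrane proteins were below 0 in 7 of 7, with a median of -0.09. Scarb2 (LIMP-2), which carries glucocerebrosidase to lysosomes, read 10.44, 10.39 and 10.32 in KO, 10.43, 10.29 and 10.22 in R47H, and 10.22, 10.19 and 10.09 in CV. The CV and KO groups did not overlap and the difference was -0.22 ± 0.07 (limma adjusted p = 0.216). Cln3, whose loss causes juvenile neuronal ceroid lipofuscinosis, read 8.50, 8.32 and 8.32 in KO, 8.38, 8.42 and 8.32 in R47H, and 8.29, 8.08 and 8.23 in CV. CV mouse 2 was the lowest, and CV lay below both other groups. It stood at -0.18 ± 0.07 (limma adjusted p = 0.349). The major glycoproteins of the lysosomal membrane stood at -0.10 ± 0.07 (Lamp1) and -0.002 ± 0.089 (Lamp2), the calcium channel Mcoln1 at -0.09 ± 0.10 and Laptm5, a lysosomal membrane protein of blood cells, at -0.09 ± 0.06. Npc1, which exports cholesterol, stood at -0.04 ± 0.10. The soluble partners in lipid handling stood close to 0: Npc2, which hands cholesterol to Npc1, at -0.01 ± 0.07 and the phospholipase Pla2g15 at -0.002 ± 0.075. Lipa, the acid lipase of cholesteryl esters and triglycerides, read 9.44, 9.04 and 9.08 in KO, 9.52, 9.15 and 9.25 in R47H, and 9.43, 9.27 and 9.27 in CV. The female was the highest mouse of each genotype. It stood at 0.14 ± 0.07 (limma adjusted p = 0.467).

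CV mice lay entirely below KO mice for 9 members (25.7%, against 8.05% of all genes), which besides Naglu, Ids, Scarb2, Cln3, Sgsh and Arsb were Aga, Laptm5 and Lgmn. They lay entirely above for 1, Gla (2.86%, against 5.90%). Markers of other cells moved in the same comparison. All 9 tested neutrophil markers were above 0 in CV minus KO, with a median of 2.55, and all 9 microglial markers were below 0, with a median of -0.19. None of either list was called by limma, while 9 of 9 neutrophil and 6 of 9 microglial markers passed an unadjusted p under 0.05. Of the neutrophil markers, Mmp8 averaged 5.24 in KO, 4.86 in R47H and 7.17 in CV. It therefore passed the filter of 5.31 only through CV. Ly6g, a defining neutrophil surface marker that was below the filter on low values, read 3.54, 3.88 and 6.09 in KO, 3.69, 3.86 and 3.91 in R47H, and 4.24, 6.67 and 6.10 in CV. When the neutrophil score entered the model, the members' median was -0.08, 3 passed an unadjusted p under 0.05 (8.57%, against 6.93% of all genes in the same fit) and 25 of 35 were below 0. Oligodendrocyte markers were below 0 in 8 of 8, with a median of -0.19, 0 called by limma and 1 at an unadjusted p under 0.05. When the oligodendrocyte score entered the model, the members' median was -0.08, with 28 of 35 below 0 and 7 at an unadjusted p under 0.05 (20%, against 8.99% of all genes). Without KO mouse 3, whose neutrophil score of 1.89 was near those of CV mice 2 and 3 (1.97 and 1.70), the median was -0.11 and 30 of 35 were below 0. With the 6 males alone, a comparison chosen after seeing the data, the median was -0.11 with 30 of 35 below 0. No member was called under any of these (limma), and the part of the microglial markers' shift in the members' values was not tested.

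Microglia with R47H did not differ from KO past the threshold in any of the 35 lysosomal members. This comparison shares the KO mice with CV minus KO. In R47H minus KO 0 of 35 members were called (limma, against 0.0834% of all genes) and 0 passed an unadjusted p under 0.05 (against 5.68%). Members lay on both sides, with 16 below 0 (45.7%, against 50.4% of all genes) and 19 above (54.3%, against 49.6%), at a median of 0.02 beside -0.001 for all genes, and the median was -0.01 after quantile normalization. Differences ran from -0.16 ± 0.10 (Mcoln1) to 0.12 ± 0.07 (Lipa; smallest limma adjusted p = 0.908), and all 35 intervals lay inside -0.5 to 0.5. Mcoln1 read 8.19, 8.51 and 8.37 in KO, 8.06, 8.29 and 8.24 in R47H, and 8.27, 8.10 and 8.42 in CV, with R47H mouse 1 the lowest of the 9. Naglu stood at -0.10 ± 0.08, Gla at -0.05 ± 0.08, Ids at 0.05 ± 0.11 and Gaa at 0.07 ± 0.07. R47H and KO overlapped for every member, while they did not overlap for 3.84% (higher) and 3.27% (lower) of all genes. Oligodendrocyte markers were above 0 in 8 of 8, with a median of 0.84 and 1 called, and their summed log2 level was 10.30 to 10.69 in R47H against 9.25 to 10.08 in KO. The marker called, Ermn, averaged 5.05 in KO, 5.00 in CV and 6.67 in R47H. It therefore passed the filter of 5.31 only through R47H, and it also enters the oligodendrocyte score. When this score entered the model, the members' median was -0.02, with 20 of 35 below 0 and 0 called (limma). The score was 0.54 to 0.88 in R47H and -0.66 to 0.14 in KO, so this fit cannot set score and genotype apart. Astrocyte markers were above 0 in 3 of 4, with a median of 0.72, 0 called by limma and 3 at an unadjusted p under 0.05. Their summed log2 level was 9.56 to 9.80 in R47H against 8.87 to 9.31 in KO. Slc1a2, an astrocyte marker averaging 5.25 in KO, 5.13 in CV and 5.71 in R47H, passed the filter only through R47H. The part of the astrocyte markers in the members' values was not tested.

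**Figure D4:**
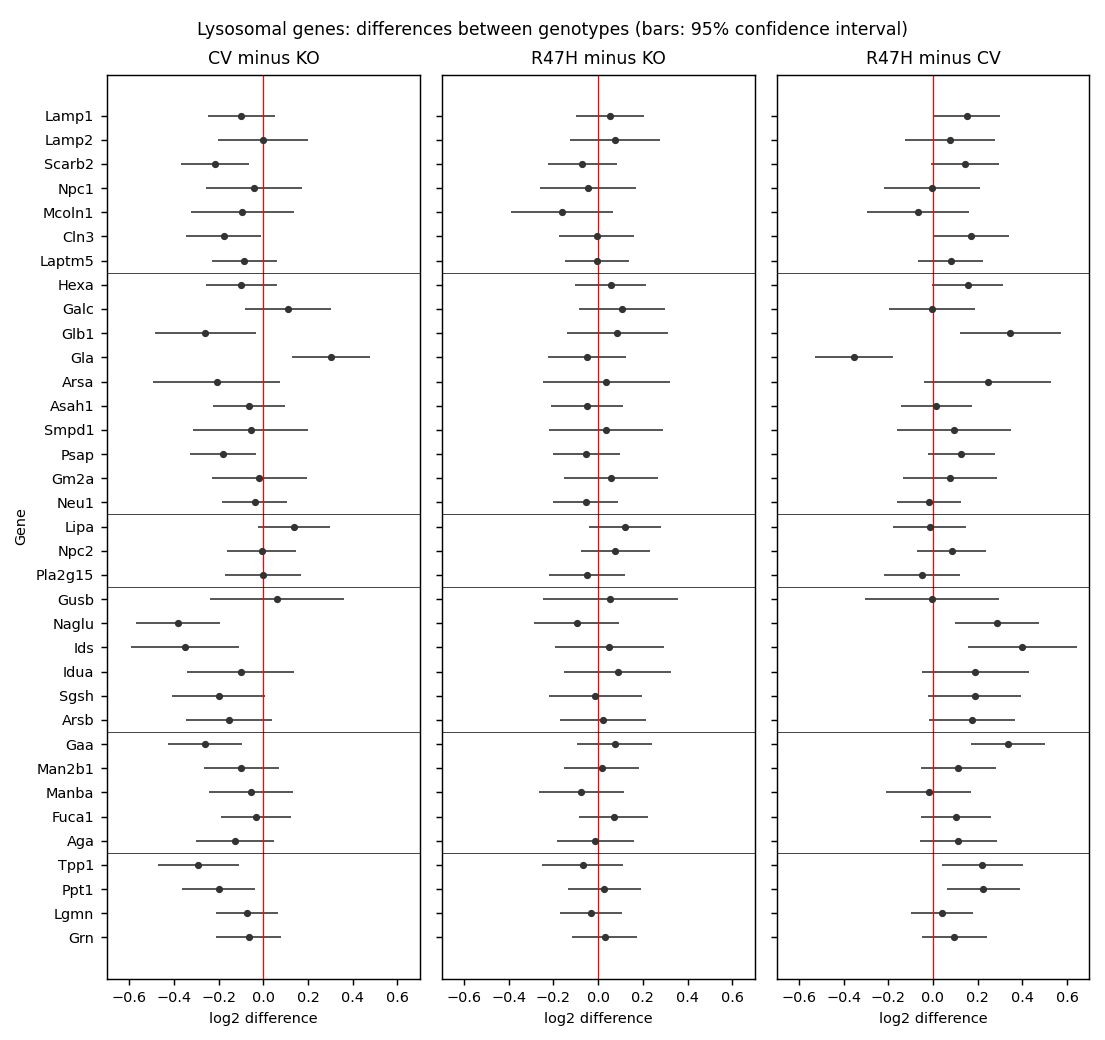
Log2 differences of the 35 lysosomal genes in 3 comparisons, with 95% confidence intervals from the limma model and lines between roles. In CV minus KO 31 of 35 points lie below 0, in R47H minus KO points lie on both sides, and in R47H minus CV 26 lie above 0.

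R47H set directly against CV gave 0 called members as well (limma, against 0.797% of all genes). This comparison shares the CV mice with CV minus KO, so its values are not independent of those given above. At an unadjusted p under 0.05, 8 members were higher in R47H (22.9%, against 7.13% of all genes) and 1, Gla, lower (against 5.24%), and 26 of 35 were above 0 (74.3%, against 53.4%), at a median of 0.10 beside 0.01. Without the sex term 4 members passed that threshold in either direction (11.4%, against 10.4% of all genes). Gla stood at -0.35 ± 0.08 (limma adjusted p = 0.104), Gaa at 0.34 ± 0.07 (adjusted p = 0.106), Ids at 0.40 ± 0.11 and Glb1 at 0.35 ± 0.10. Naglu, Ppt1 and Tpp1 followed at 0.29 ± 0.08, 0.23 ± 0.07 and 0.22 ± 0.08. The R47H mice lay entirely above CV for 5 members (14.3%, against 8.74%), Ids, Cln3, Scarb2, Arsa and Laptm5, and entirely below for Gla (2.86%, against 6.17%). Oligodendrocyte markers were above 0 in 8 of 8, with 5 called and a median of 1.14, and neutrophil markers below 0 in 9 of 9, with a median of -2.30. Ermn, among those called, and the astrocyte marker Slc1a2 passed the filter only through R47H, and the neutrophil marker Mmp8 only through CV. With the oligodendrocyte score as a covariate the median was 0.04, 22 of 35 were above 0 and 0 passed an unadjusted p under 0.05 (against 3.34% of all genes in that fit). With the neutrophil score in its place the median was 0.08, with 4 members at an unadjusted p under 0.05 (11.4%, against 6.35% of all genes in that fit). The oligodendrocyte score was 0.54 to 0.88 in R47H and -0.68 to -0.29 in CV. The neutrophil score was -1.50 to -0.12 in R47H and 0.90 to 1.97 in CV. Both scores separated the groups, so these fits cannot set score and genotype apart. Microglial markers were above 0 in 8 of 9, with a median of 0.15, 0 called by limma and 3 at an unadjusted p under 0.05. Astrocyte markers were above 0 in 4 of 4, with a median of 0.87 and 1 called. The part of the microglial and astrocyte markers in the members' values was not tested.

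Promoters with and without the E-box were set beside these differences. In CV minus KO the 10 members with CACGTG had a median of -0.19, with 9 below 0, and the 22 without it had -0.06, with 19 below 0. The ranges overlapped, from -0.38 to 0.30 with the motif and from -0.35 to 0.14 without, and both ends of the first are genes whose promoters are printed (Naglu and Gla). In R47H minus KO the medians were -0.01 and 0.03. The longer TCACGTGA is held by Gla, at 0.30 in CV minus KO, and by Mcoln1 and Cln3, at -0.09 and -0.18.

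Females read higher than males for most lysosomal genes, although 0 of 35 members were called in females minus males (limma, against 0.0648% of all genes). At an unadjusted p under 0.05, 13 members were higher in females (37.1%, against 7.45%) and 0 lower (against 3.55%), and 31 of 35 were above 0 (88.6%, against 54.0%), at a median of 0.13 beside 0.01. In 13 members (37.1%, against 8.28%) the female exceeded both males in every genotype, among them Galc, Gaa, Lipa and Gm2a. All 3 females lay above all 6 males for 5 members (14.3%, against 2.48%), Galc, Lipa, Gm2a, Fuca1 and Idua. Galc read 7.94, 7.91 and 7.86 in the KO, R47H and CV females, and 7.25 to 7.56 in the 6 males. Its difference was 0.47 ± 0.07 (limma adjusted p = 0.0941), beside 0.11 ± 0.09 in CV minus KO and 0.11 ± 0.09 in R47H minus KO. Gm2a stood at 0.38 ± 0.08, Gaa at 0.36 ± 0.06, Idua at 0.34 ± 0.09 and Lipa at 0.29 ± 0.06, with adjusted p of 0.152 to 0.247. Mcoln1 leaned furthest the other way, at -0.15 ± 0.09, and Lgmn, Arsb and Laptm5 lay at 0.00 ± 0.05, -0.01 ± 0.07 and 0.02 ± 0.06. Neutrophil markers were below 0 in females in 9 of 9, with a median of -1.57, 0 called by limma and 3 at an unadjusted p under 0.05. When the neutrophil score entered the model, the members' median was 0.12, with 33 of 35 above 0. Oligodendrocyte markers were above 0 in females in 8 of 8, with a median of 0.25, 0 called by limma and 1 at an unadjusted p under 0.05. With that score in the model the members' median was 0.14 and 32 of 35 were above 0. Each genotype had 1 female, mouse 1 in each, so sex and whatever else mouse 1 shared cannot be told apart. The genotype differences were not shown to differ between the sexes for any member: 0 of 35 were called or passed an unadjusted p under 0.05 in the interaction of sex with each of the 3 comparisons (limma, 0 of all genes called and 3.05% to 4.02% at an unadjusted p under 0.05), a fit with 3 residual degrees of freedom that was added after seeing the data.

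**Figure D5:**
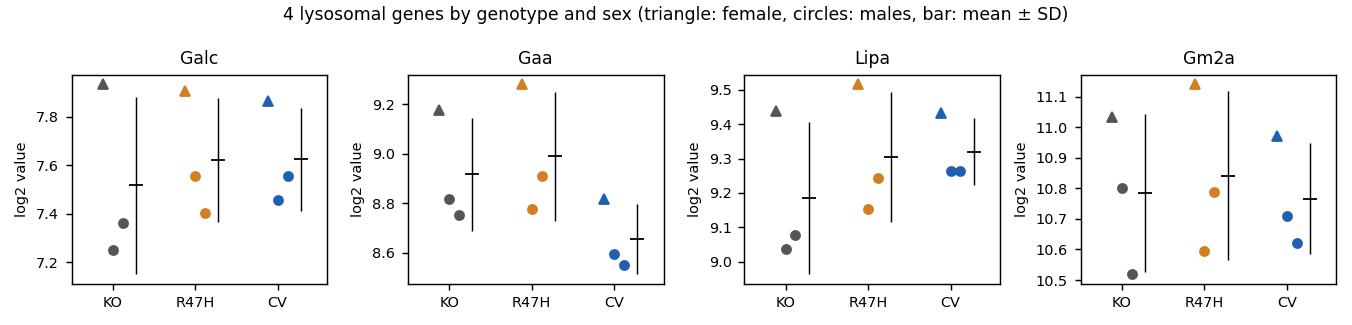
Log2 values of the 4 lysosomal genes with the smallest unadjusted p in females minus males, by genotype; the triangle is the female and circles the males, and the bar is the mean ± SD over 3 mice. In each genotype the female lies above both males for Galc, Gaa, Lipa and Gm2a; the axes do not start at 0.

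A second list of 38 lysosomal genes outside the rule had 30 with a single-symbol probe set and 29 tested. It was chosen with earlier results of these data known, so its shares beside all genes are descriptions and not a test. In each comparison between genotypes 1 was called (3.45%, against 1.21% for CV minus KO, 0.0834% for R47H minus KO and 0.797% for R47H minus CV), and in all 3 it was Gpnmb, a glycoprotein of lysosomes and melanosomes. It read 7.47, 6.89 and 5.74 in KO, 10.04, 9.16 and 9.14 in R47H, and 11.24, 10.86 and 10.97 in CV. The groups were fully separate, in the order KO, R47H, CV, and its differences from KO were 2.75 ± 0.27 in R47H (limma adjusted p = 0.0143) and 4.32 ± 0.27 in CV (adjusted p = 0.000332). R47H stood at -1.57 ± 0.27 against CV (limma adjusted p = 0.0426). The CV minus KO call held under all 21 alternatives run, with differences of 3.94 to 5.04 and limma adjusted p of at most 0.0257. The R47H minus KO call was lost under 8 of 21, among them the oligodendrocyte score (limma adjusted p = 0.986), males only (adjusted p = 0.267), no sex term (0.0654), and leaving out KO mouse 1 (0.0648) or R47H mouse 1, 2 or 3 (0.0854, 0.0797 and 0.0711). The R47H minus CV call was lost under 12 of 21, with limma adjusted p of 0.00111 to 1 over all of them and a difference of -3.14 ± 0.54 with the oligodendrocyte score. That score separated R47H from both other groups, so its fits cannot set score and genotype apart here either. Leaving out KO mouse 1 or any 1 of the R47H or CV mice ended the R47H minus CV call. By contrast the list's median difference was -0.04 in CV minus KO, 0.02 in R47H minus KO and 0.09 in R47H minus CV. All tested genes had medians of -0.02, -0.001 and 0.01 there. In CV minus KO 7 of 29 passed an unadjusted p under 0.05 (limma, 24.1%, against 13.2% of all genes), 3 higher and 4 lower. Gnptab, a subunit of the enzyme that starts the mannose 6-phosphate tag, read 7.01, 6.90 and 6.76 in KO, 7.39, 7.11 and 7.11 in R47H, and 7.40, 7.12 and 7.20 in CV. Both human TREM2 groups lay above KO, at 0.31 ± 0.07 (limma adjusted p = 0.242) and 0.35 ± 0.07 (adjusted p = 0.0548). Nagpa, which uncovers that tag, stood at -0.38 ± 0.11 in CV and -0.22 ± 0.11 in R47H, and the sorting receptor Sort1 at -0.36 ± 0.12 in CV, with adjusted p of 0.208 to 0.907. Abca2, a lysosomal lipid transporter, stood at 0.30 ± 0.09 in R47H minus KO and 0.27 ± 0.09 in R47H minus CV. The sulfatase Galns stood at 0.41 ± 0.11 and the tartrate-resistant phosphatase Acp5 at -0.50 ± 0.16 in R47H minus CV, none of them called (limma). Oligodendrocyte markers were above 0 in 8 of 8 in both R47H comparisons, and their part in the Abca2 values was not tested. In females minus males 0 of 29 were called (limma, against 0.0648% of all genes). At an unadjusted p under 0.05, 8 of 29 passed, all of them higher in females (against 11% of all genes, 7.45% higher and 3.55% lower). Ostm1, the partner of a lysosomal chloride transporter, stood at 0.22 ± 0.06 and Gnptab at 0.24 ± 0.06 (limma adjusted p = 0.287 and 0.231). Gpnmb stood at 0.79 ± 0.23.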

How the data were processed

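Values were used as deposited: a single number for each of 35556 probe sets on each array, taken as log2 from their range of 1.31 to 13.89 because the deposited table does not name the scale. How the authors corrected background, normalized and summarised probes was not given in the sources used here. Among the deposited values, 52.5% of tested genes held the same value on at least 2 arrays. Per the labels' protocols, biotin-labelled cRNA was made from 2 ng of total RNA.

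Probe sets with a single symbol in the platform annotation (21789) were used, the highest-mean probe set standing for a gene. Genes with a mean at or above the median probe set (5.31) were tested. Models with genotype and sex were fitted to all 9 arrays in limma 3.58.1 (R 4.3.3; lmFit and eBayes), two-sided, with Benjamini-Hochberg adjustment over 10795 genes within each comparison and a call at adjusted p under 0.05. Confidence intervals are 95%. With 3 mice against 3, the smallest p an exact permutation test allows is 0.1; limma was therefore used for each gene, and the number of arrays limits the precision. The residual SD had a median of 0.12.

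The 35 members, the list of other lysosomal genes and the marker lists were chosen with earlier results of these data known. Named genes were all members, and of the other lysosomal genes those called plus the 3 with the smallest p in each comparison. Marker scores are the mean deviation of a list's tested genes. Neuron markers passed the filter in 0 of 6, and lymphocyte and endothelial lists had 2 and 3 tested genes; in CV minus KO each had 1 called gene (medians -0.35 and 0.03). Tested monocyte markers (5) had a median of 0.28 and astrocyte markers (4) of -0.21 there. Chil3, a monocyte marker averaging 5.07 in KO, 4.50 in R47H and 7.25 in CV, passed the filter only through CV. Cross-hybridisation with related genes was not checked.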

Additional observations from a re-analysis of the deposited data

Results flagged for a closer look

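Values of single mice were compared within the 6 males, since groups of 3 were too small for this check. A mouse was singled out where its gap to the nearest other male, as a share of the males' range, passed the 95% limit of Dixon's test. Of 43 genes checked, the 35 members and 8 other lysosomal genes, 3 had such a mouse, and chance gives about 1 in 20. Lamp2 read 10.70 (log2) in KO mouse 2, where the next male read 10.87. Laptm5 read 12.99 in CV mouse 3, where the next read 13.10. Pla2g15 read 9.50 in R47H mouse 2, where the next read 9.67. The 6 males span 3 genotypes, and none of these genes was called in a genotype comparison.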

How the results depend on the processing

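No lysosomal member was called in any of the genotype comparisons or between the sexes under any alternative run (limma). Single-mouse removals gave members' medians of -0.11 to -0.07 in CV minus KO, -0.02 to 0.02 in R47H minus KO and 0.09 to 0.11 in R47H minus CV. Counts over all genes depended more on the choices. Against 131 in CV minus KO, 77 genes were called without a sex term, 54 with the compared groups alone, 22 with the neutrophil score, 65 with the oligodendrocyte score and 20 with males only, which was chosen after seeing the data; removing 1 mouse gave 59 (CV mouse 1) to 172 (KO mouse 3), with 74 without KO mouse 1, 75 without KO mouse 2, 70 without CV mouse 2 and 67 without CV mouse 3. Against 9 in R47H minus KO, the counts were 3 without sex, 1 with the compared groups alone, 15 with trend and robust options, 15 with the neutrophil score, 0 with the oligodendrocyte score (427 at an unadjusted p under 0.05) and 0 with males only (549); removing 1 mouse gave 0 (R47H mouse 3; 534) to 7. Against 86 in R47H minus CV, they were 48 without a filter, 9 with a mean of at least 7, 9 with the neutrophil score, 0 with the oligodendrocyte score (361) and 1 with males only; removing 1 mouse gave 9 (R47H mouse 1 or CV mouse 3) to 132 (KO mouse 3). The cause was not tested. Mouse numbers are not stated to pair mice. The deviations of same-numbered mice correlated from 0.32 to 0.36 for mouse 1, the females, and from -0.04 to 0.21 for mice 2 and 3. Those of differently numbered mice correlated from -0.39 to 0.21. With the mouse number as a replicate block 136, 11 and 83 genes and 0 members were called.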

Other observations

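Of the 35 members, 16 held exactly the same deposited value on at least 2 arrays, as did 52.5% of all tested genes. Gaa read 8.82 (log2) in both KO mouse 2 and CV mouse 1, Lipa 9.27 in both CV males, and Nagpa, outside the member list, 7.98 in all 3 R47H mice. For such genes the spread between mice on this table can be smaller than the spread of the RNA.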
